A study of Arabidopsis thaliana with 15 samples.

Results

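The genes described here encode the monomeric receptors of abscisic acid (ABA), PYL4 to PYL13, in Arabidopsis thaliana. They were chosen by locus, with 1 probe set for each, and all 10 had a value among the 27981 loci measured. The loci are AT2G38310 (PYL4), AT5G05440 (PYL5), AT2G40330 (PYL6), AT4G01026 (PYL7), AT5G53160 (PYL8), AT1G01360 (PYL9), AT4G27920 (PYL10), AT5G45860 (PYL11), AT5G45870 (PYL12) and AT4G18620 (PYL13). With PYR1 and PYL1 to PYL3, which form dimers, they make up the 14 receptors of the family. The word monomeric rests on what is known of the proteins, and no value used here measures it.

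ABA is the hormone of seed maturation, dormancy and the response to drought. A receptor that holds ABA binds and blocks phosphatases of clade A of the PP2C family, which otherwise keep SnRK2 protein kinases switched off, and the released kinases activate bZIP transcription factors such as ABI5. In germinated seeds this chain can arrest growth. By sequence, PYL7 to PYL10 form a subfamily of receptors and PYL4 to PYL6 another, to which PYL11 to PYL13 are related.

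Whole seeds of the accession Col-0 (Columbia) first had 72 h of stratification at 4 °C, then germinated under constant white light at 22 °C, and were picked when the radicle came through the seed coat. They then lay in 10 µM ABA at 20 °C in darkness, and the groups are 0 h (3 arrays), 2 h (3 arrays), 12 h (3 arrays), 24 h (3 arrays) and 72 h (3 arrays), all of the same genotype. Each array held its own pool of seeds from at least 2 plants, which makes 15 arrays in all. The title of the series names the return of desiccation tolerance under ABA as the subject, and tolerance itself is not among the values. Seeds held without ABA were not analysed here, so ABA, elapsed time, darkness and the change of temperature cannot be told apart in any difference from 0 h. In RNA from whole seeds, fewer cells of a type and less RNA per cell cannot be told apart either.

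Values are log2 signals, and a difference of 1 is a doubling of signal. Differences are later minus earlier, each ± gives the standard error of a fitted difference (n = 3 arrays per time), and a gene is called at an adjusted p under 0.05 by limma, with Benjamini-Hochberg adjustment over all loci. A mean under 3.21, the lower quartile of all loci, is called dim, and a difference to or from a dim level is given without a fold. The number of arrays limits the precision. The labels call the arrays of a time biological replicates, and the p-values measure the spread between these seed pools. The array of 2 h replicate 2 stood apart. Across loci it correlated at 0.889 and 0.901 with the other 2 h arrays, against 0.986 to 0.995 for the other pairs of replicates. Results that rest on it are also given without it.

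Among the 10 genes, 5 fell within 2 h and stayed below their 0 h level at every later time: PYL4, PYL5, PYL6, PYL8 and PYL11. For PYL11 the 2 h call was weak, and 2 h replicate 2 overlapped the 0 h arrays. PYL7 was higher than at 0 h at 2 h, 24 h and 72 h, and PYL9 was higher at 72 h. PYL13 was slightly higher at 2 h. PYL10 and PYL12 were called at no time against 0 h. By the moderated F test in limma 7 of the 10 changed over the course, all but PYL10, PYL12 and PYL13, where 44% of all loci did. The same 7 were called without 2 h replicate 2, where 58.7% of loci were.

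Counted over the 10 receptors, 2 were called higher and 5 lower at 2 h against 0 h, where 6.95% of all loci were called higher and 8.89% lower (15.8% in all). At 12 h the counts were 0 higher and 5 lower, against 13.3% and 11.7% of all loci (25% in all). At 24 h they were 1 and 5, against 17.4% and 19.1% (36.6% in all), and at 72 h they were 2 and 5, against 18.4% and 20.2% (38.5% in all). The arrays of the later time and of 0 h did not overlap for 6, 8, 8 and 7 of the 10 at 2 h, 12 h, 24 h and 72 h, as for 28.6%, 51.4%, 56.2% and 58.1% of all loci. Without 2 h replicate 2 the receptors called were 8 at 2 h, where 19.1% of loci were, and 7 at each of 12 h, 24 h and 72 h, where 40.6%, 49.1% and 51.2% of loci were. These comparisons share the 0 h arrays. The median difference of the 10 was -0.74 at 2 h, -0.85 at 12 h, -0.59 at 24 h and -0.40 at 72 h, whereas the median of all loci was 0.11, -0.04, 0 and -0.02. With arrays centred on their medians, the median of all loci shifted by 0.12 at 2 h against 0 h and by -0.17 at 12 h against 2 h, and by less than 0.1 in the other differences from 0 h and steps. No called difference of a receptor from 0 h or between successive times changed sign under any alternative. Differences of 72 h from 2 h and from 12 h were read only with all arrays and without 2 h replicate 2.

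**Figure D1:**
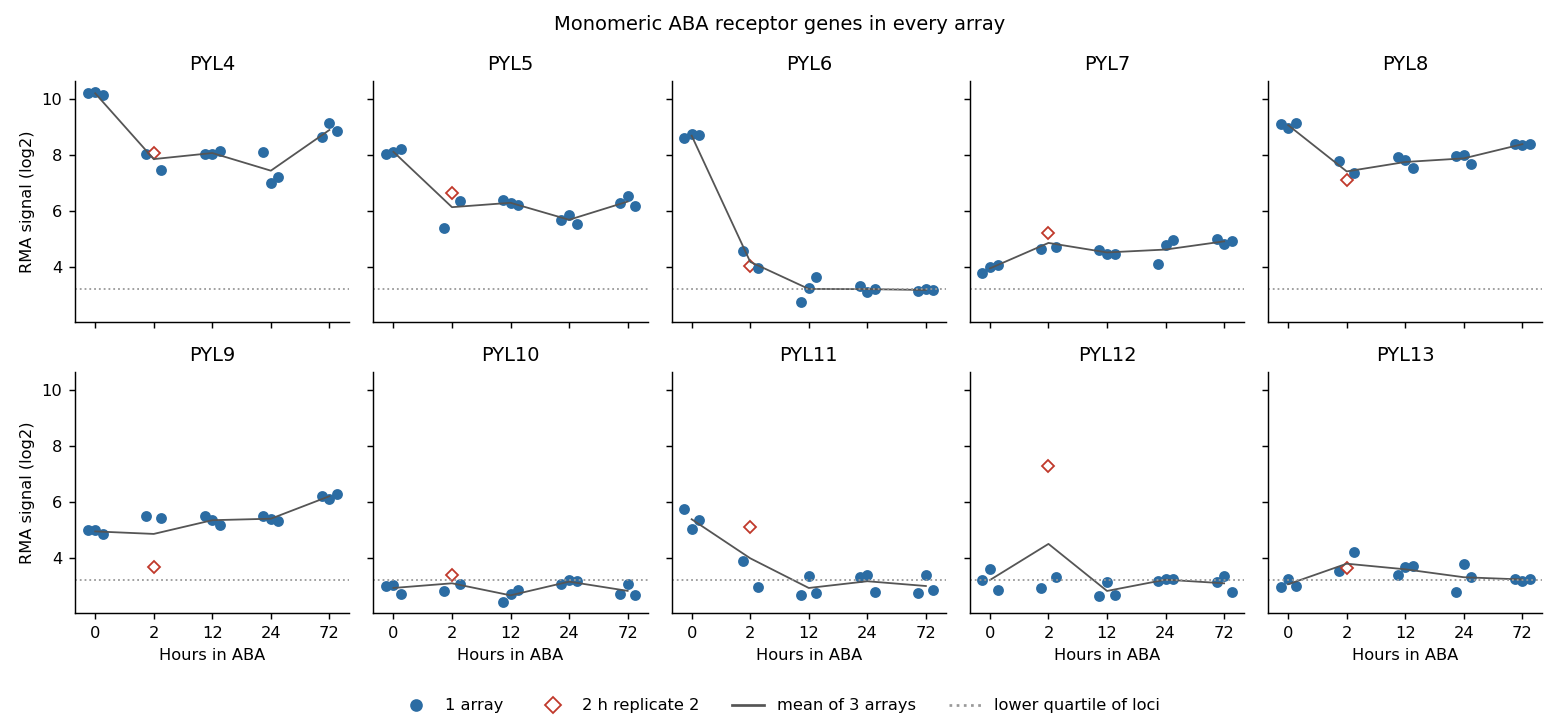
Log2 RMA signal of each receptor gene (vertical axis) against hours in ABA (horizontal axis, 5 times evenly spaced); each point is 1 array, the open diamond is 2 h replicate 2, the line joins the means of 3 arrays, and the dotted line at 3.21 is the lower quartile of all loci. PYL6 drops to the dotted line, PYL4 and PYL8 drop and partly return by 72 h, PYL9 is highest at 72 h, and PYL12 is raised on the diamond array.

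PYL6, whose protein also binds the jasmonate factor MYC2, had the largest change of the 10. Its signal was 8.59, 8.74 and 8.71 at 0 h, then 4.55, 4.03 and 3.94 at 2 h, 2.75, 3.25 and 3.62 at 12 h, 3.30, 3.11 and 3.19 at 24 h, and 3.13, 3.20 and 3.18 at 72 h. No later array came within reach of the 0 h arrays. The difference from 0 h was -4.51 ± 0.20 at 2 h (adjusted p = 1.67e-09), -5.48 ± 0.20 at 12 h, -5.48 ± 0.20 at 24 h and -5.51 ± 0.20 at 72 h (adjusted p = 1.61e-10). On the log2 scale the difference at 2 h was 81.8% of that at 72 h. Since the 72 h level was dim, this share is an upper bound. A further drop at 12 h against 2 h (-0.97 ± 0.20, adjusted p = 0.0159) lost its call when 12 h replicate 1 was left out (-0.74, adjusted p = 0.0755), with only these 6 arrays in the fit (adjusted p = 0.412) or after repeated quantile normalization (-0.64, adjusted p = 0.165). The 12 h, 24 h and 72 h means were dim, at 3.21, 3.20 and 3.17, so the size of the fall is limited by what the array can register. These last levels did not differ beyond their spread (adjusted p = 0.994 for 24 h against 12 h and 0.999 for 72 h against 24 h).

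PYL4, a receptor gene also tied to jasmonate responses, fell and then partly returned. Its arrays read 10.20, 10.24 and 10.14 at 0 h, 8.02, 8.06 and 7.45 at 2 h, 8.01, 8.03 and 8.14 at 12 h, 8.09, 7.0 and 7.20 at 24 h, and 8.64, 9.15 and 8.86 at 72 h. All arrays in ABA lay under all 0 h arrays, and all 72 h arrays lay above all arrays of 2 h, 12 h and 24 h. The difference from 0 h was -2.35 ± 0.25 at 2 h (adjusted p = 1.28e-05), -2.14 ± 0.25 at 12 h, -2.76 ± 0.25 at 24 h and -1.31 ± 0.25 at 72 h (adjusted p = 6.72e-04). At 72 h the gene was higher than at 24 h by 1.45 ± 0.25 (95% interval 0.92 to 1.98, adjusted p = 0.00469), than at 12 h by 0.83 (adjusted p = 0.0288) and than at 2 h by 1.04 (adjusted p = 0.00587). Of all loci 1.93% were called higher at 72 h than at 24 h, 9.07% higher than at 12 h and 15.3% higher than at 2 h. That return came to 52.5% of the fall from 0 h to 24 h, its lowest mean. The order of its levels was 0 h, 72 h, 12 h, 2 h and 24 h, in which the last 3 were not called different with all arrays weighted equally. At 24 h replicate 1 stood apart from the other arrays, and without it PYL4 was called lower at 24 h than at 12 h (-0.95, adjusted p = 0.017), against -0.62 and adjusted p = 0.166 with it. With array quality weights that difference was called too (-0.82, adjusted p = 0.001).

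PYL5, whose overexpression is known to raise drought resistance, was lower than at 0 h at every later time. It read 8.01, 8.10 and 8.20 at 0 h, 5.40, 6.62 and 6.36 at 2 h, 6.38, 6.27 and 6.20 at 12 h, 5.66, 5.83 and 5.54 at 24 h, and 6.27, 6.54 and 6.17 at 72 h. No array in ABA reached the 0 h arrays. Differences from 0 h were -1.98 ± 0.24 at 2 h (adjusted p = 4.73e-05), -1.82 ± 0.24 at 12 h, -2.43 ± 0.24 at 24 h and -1.78 ± 0.24 at 72 h (adjusted p = 4.11e-05). After 0 h, no neighbouring levels in the order 72 h, 12 h, 2 h and 24 h were called different. All 24 h arrays lay under all 72 h arrays and all 12 h arrays. With every array in the fit 72 h against 24 h gave 0.65 ± 0.24 (adjusted p = 0.197) and 24 h against 12 h gave -0.60 ± 0.24 (adjusted p = 0.165). Both were called without 2 h replicate 2 (adjusted p = 0.0347 and 0.0329) and without 2 h replicate 1 (adjusted p = 0.0173 for each), which changes the shared estimate of spread and not these differences. Whether PYL4 returned more than PYL5 was not tested.

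PYL8, a main receptor of roots that also acts with the factor MYB77 in lateral root growth, fell and by 72 h stood above its 2 h and 12 h levels. Its kept probe set read 9.08, 8.96 and 9.13 at 0 h, 7.77, 7.08 and 7.36 at 2 h, 7.91, 7.80 and 7.51 at 12 h, 7.96, 7.99 and 7.66 at 24 h, and 8.39, 8.35 and 8.39 at 72 h. The 72 h arrays lay above all arrays of 2 h to 24 h and under all 0 h arrays. The difference from 0 h was -1.66 ± 0.17 at 2 h (adjusted p = 1.17e-05), -1.32 ± 0.17 at 12 h, -1.19 ± 0.17 at 24 h and -0.68 ± 0.17 at 72 h (95% interval -1.05 to -0.31, adjusted p = 0.0057). The 72 h level exceeded that of 2 h by 0.98 ± 0.17 (adjusted p = 7.68e-04), or 59% of the fall from 0 h to 2 h, its lowest mean. It exceeded that of 12 h by 0.64 (adjusted p = 0.0177). Without 2 h replicate 2, the lowest 2 h array, the 2 h difference from 0 h was -1.50 ± 0.15. In that fit 72 h exceeded 2 h by 0.82 ± 0.15 (adjusted p = 5.2e-04). Against 24 h the 72 h level differed by 0.51 ± 0.17 (adjusted p = 0.149), called without 2 h replicate 2 (adjusted p = 0.0227). Neighbours in the order 72 h, 24 h, 12 h and 2 h were not told apart by the fit.

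PYL8 was the only member with a second probe set, also named by this locus. That probe set averaged 8.33 at 0 h, 6.67 at 2 h, 7.03 at 12 h, 7.10 at 24 h and 7.70 at 72 h. In a fit of every probe set its differences from 0 h were -1.66, -1.30, -1.23 and -0.63 at 2 h, 12 h, 24 h and 72 h, each called (adjusted p = 1.87e-05 to 0.0109). Both probe sets were thus called lower at all 4 times. What part of the transcript each covers is not given in the sources used here.

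PYL11, a receptor known for its role in the ABA response of germinating seeds, stood at 5.75, 5.04 and 5.35 at 0 h. Its arrays read 3.88, 5.11 and 2.97 at 2 h, 2.66, 3.36 and 2.76 at 12 h, 3.31, 3.40 and 2.79 at 24 h, and 2.73, 3.40 and 2.86 at 72 h. From 12 h on every array lay under the 0 h arrays, whereas at 2 h replicate 2 overlapped them. The means from 12 h on were dim (2.93, 3.17 and 2.99) and were not told apart. Differences from 0 h were -1.39 ± 0.41 at 2 h (adjusted p = 0.0334), -2.46 ± 0.41 at 12 h (adjusted p = 5.15e-04), -2.21 ± 0.41 at 24 h and -2.39 ± 0.41 at 72 h (adjusted p = 3.4e-04). The 2 h difference was -1.95 ± 0.30 without 2 h replicate 2 (adjusted p = 2.69e-04). That call did not hold in the fits that left out 0 h replicate 1 (-1.21, adjusted p = 0.128) or replicate 3 of that time (-1.41, 0.0863), nor in those without 2 h replicate 1 (-1.34, 0.0538) or its replicate 3 (-0.89, 0.0785). It was also lost with arrays centred on their medians (-1.28, adjusted p = 0.0742) and after repeated quantile normalization (-1.26, adjusted p = 0.0691). With only the 0 h and 2 h arrays in the fit the adjusted p was 0.235. At 12 h against 2 h PYL11 differed by -1.06 ± 0.41 (adjusted p = 0.132), and without 2 h replicate 3 it was called (-1.57, adjusted p = 0.0191).

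PYL9, a receptor known from drought and leaf senescence, was highest at the end of the course. It read 5.01, 4.98 and 4.85 at 0 h, 5.48, 3.66 and 5.43 at 2 h, 5.51, 5.37 and 5.16 at 12 h, 5.48, 5.40 and 5.32 at 24 h, and 6.22, 6.10 and 6.29 at 72 h. All 72 h arrays lay above every other array. On 2 h replicate 2 the gene was 1.76 under the lower of the other 2 h arrays. With that array in the fit the difference from 0 h was -0.09 ± 0.34 at 2 h (adjusted p = 0.852), 0.40 ± 0.34 at 12 h (adjusted p = 0.495), 0.45 ± 0.34 at 24 h (adjusted p = 0.382) and 1.26 ± 0.34 at 72 h (adjusted p = 0.00923). Without it the standard errors at 12 h to 72 h fell to 0.11, and PYL9 was called higher at every time, by 0.50 ± 0.12 at 2 h (adjusted p = 0.00728), 0.40 at 12 h (adjusted p = 0.00803), 0.45 at 24 h (adjusted p = 0.00248) and 1.26 at 72 h (adjusted p = 1.52e-07). The step at 72 h against 24 h was 0.81 in both fits, with adjusted p = 0.295 with the array and 2.03e-04 without it. After repeated quantile normalization the 72 h difference from 0 h was 1.25 and missed the call (adjusted p = 0.057). With all arrays, neighbours in the order 72 h, 24 h, 12 h, 0 h and 2 h were not told apart by the fit.

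PYL7, of the subfamily of PYL8 and PYL9, was modestly higher in ABA. It read 3.79, 3.98 and 4.05 at 0 h, 4.62, 5.21 and 4.72 at 2 h, 4.61, 4.46 and 4.46 at 12 h, 4.10, 4.77 and 4.97 at 24 h, and 4.98, 4.82 and 4.92 at 72 h. All arrays in ABA lay above all 0 h arrays, although 24 h replicate 1 did so by a narrow margin. Differences from 0 h were 0.91 ± 0.21 at 2 h (adjusted p = 0.00765), 0.57 ± 0.21 at 12 h (adjusted p = 0.0601), 0.67 ± 0.21 at 24 h (adjusted p = 0.0195) and 0.97 ± 0.21 at 72 h (95% interval 0.52 to 1.41, adjusted p = 0.0018). The 12 h difference passed the threshold when 2 h replicate 2 was left out (adjusted p = 0.0154), when 24 h replicate 1 was (0.0193) and when 24 h replicate 3 was (0.0493). It also passed with array quality weights (0.0024), with the lowest 25% of loci left out (0.0448) and with only the 0 h and 12 h arrays (0.00317). The 24 h difference no longer passed once 0 h replicate 1 (adjusted p = 0.0768) or, of the 24 h arrays, replicate 2 (0.0791) or replicate 3 (0.108) was left out. With only the 0 h and 2 h arrays in the fit, the 2 h difference missed it as well (adjusted p = 0.0765). No difference between the later levels was called. All 12 h arrays lay under all 72 h arrays (0.40 ± 0.21 for 72 h against 12 h, adjusted p = 0.228) and under all 2 h arrays (-0.34 ± 0.21 for 12 h against 2 h, adjusted p = 0.265).

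PYL13, known as an atypical member whose protein can block certain phosphatases without ABA, was near the dim limit. It read 2.96, 3.23 and 2.99 at 0 h and 3.54, 3.64 and 4.20 at 2 h, and its later arrays ranged from 2.8 to 3.80. At 2 h all arrays lay above those of 0 h, and the difference of 0.73 ± 0.23 was called (adjusted p = 0.0426). The call was weak. It was lost in 11 of the 15 fits that leave out an array, with adjusted p from 0.0514 to 0.13, namely without any array of 0 h, 12 h or 72 h, without 2 h replicate 3 or without 24 h replicate 3. After repeated quantile normalization the difference was 0.48 (adjusted p = 0.298). Later differences from 0 h were 0.53 at 12 h (adjusted p = 0.112), 0.25 at 24 h and 0.17 at 72 h. At 12 h the gene was called with array quality weights (0.60, adjusted p = 0.00565) and with only the 0 h and 12 h arrays in the fit (adjusted p = 0.0098).

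PYL10, whose protein can bind some phosphatases without ABA, was dim at all 5 times, with means from 2.66 at 12 h to 3.15 at 24 h. Its differences from 0 h ran from -0.26 ± 0.17 at 12 h to 0.23 ± 0.17 at 24 h, and none was called. The step at 24 h against 12 h, 0.49 ± 0.17 (adjusted p = 0.123), was called without 2 h replicate 2 (adjusted p = 0.0253), between levels that both lay under the dim limit.

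PYL12, like PYL11 known from the ABA response of germinating seeds, was near or under the dim limit on 14 of the 15 arrays, which ranged from 2.64 to 3.59. It read 2.91, 7.28 and 3.31 at 2 h, against 3.20, 3.59 and 2.84 at 0 h. The fitted difference of 1.29 ± 0.78 at 2 h was not called (adjusted p = 0.257), and without 2 h replicate 2 it was -0.10 ± 0.22 (adjusted p = 0.832). On that array PYL12 stood 3.97 above the higher of the other 2 h arrays, and 31 of 27981 loci (0.111%) stood as far above or farther. PYL11, its neighbour in the RefSeq gene table, stood 1.22 above on the same array, as did 8.44% of loci or more strongly. Whether the probes of these neighbours can bind each other's transcripts was not tested.

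**Figure D2:**
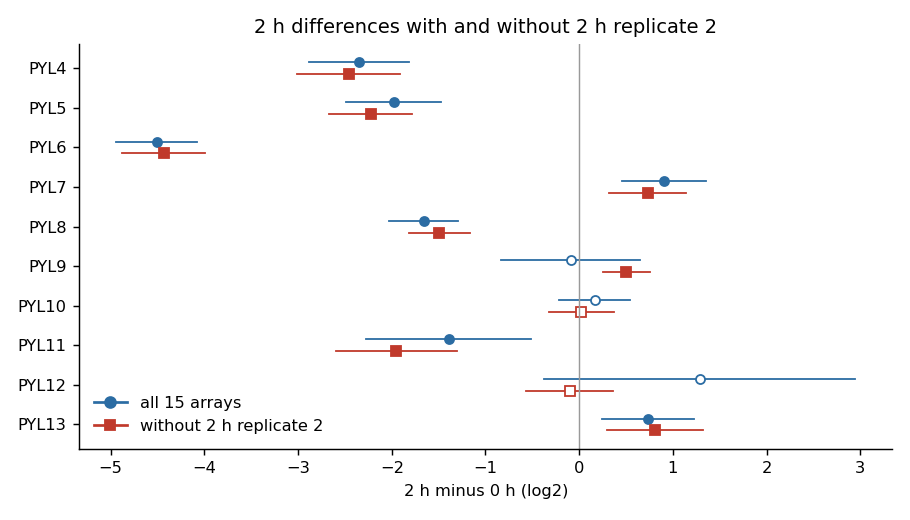
Difference at 2 h from 0 h (horizontal axis, log2) for each receptor gene (rows), with 95% intervals, from all 15 arrays (circles) and without 2 h replicate 2 (squares); filled symbols are called. PYL9 goes to 0.50 without the array, against -0.09 with it, and PYL12 to -0.10, against 1.29 with it, while PYL4, PYL5, PYL6, PYL7, PYL8, PYL11 and PYL13 are called either way.

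**Figure D3:**
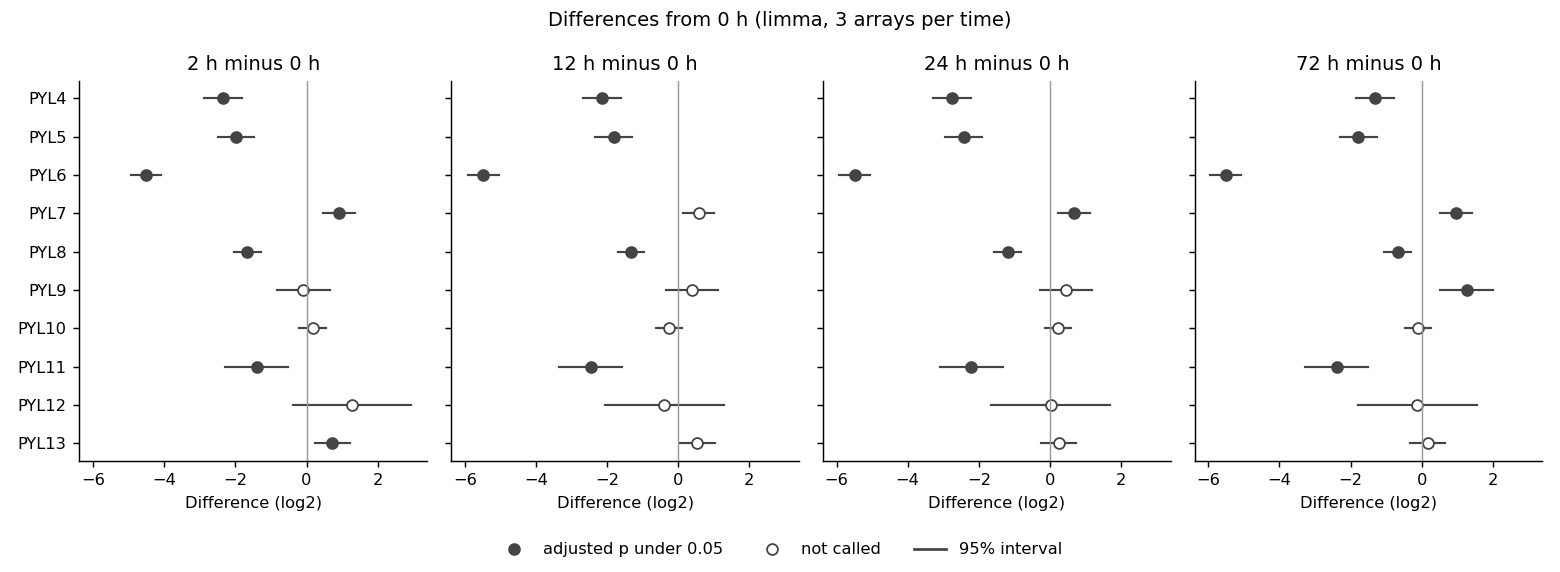
Difference from 0 h (horizontal axis, log2) at 2 h, 12 h, 24 h and 72 h for each receptor gene (rows); bars are 95% intervals from limma, and filled points have an adjusted p under 0.05. PYL4, PYL5, PYL6, PYL8 and PYL11 lie under 0 at all 4 times, from -5.51 for PYL6 to -0.68 for PYL8 at 72 h.

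Between successive times few receptors were called. At 12 h against 2 h only PYL6 was lower, where 1.62% of all loci were called lower. At 24 h against 12 h limma called 0 of 10, where 6.56% of all loci were called. There 3 of the 10 had an unadjusted p under 0.05, namely PYL4, PYL5 and PYL10. The share of all loci under that unadjusted threshold was not computed, so this count has no background and is not comparable with 6.56%. At 72 h against 24 h only PYL4 was higher, where 1.93% of all loci were called higher. Without 2 h replicate 2 the counts were 2 of 10 at 24 h against 12 h, where 21.3% of loci were called, and 4 of 10 at 72 h against 24 h, all higher, where 6.47% of loci were called higher. These 4 were PYL4, PYL5, PYL8 and PYL9.

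The arrays of PYL7 and PYL9 carry a rise by 72 h and those of PYL8 a fall, so the subfamily of PYL7 to PYL10 did not move one way. In the other subfamily PYL4, PYL5, PYL6 and PYL11 fell and PYL12 and PYL13 were called against 0 h at no time after 2 h with all arrays weighted equally in the fit. Centred on its own mean over 15 arrays, each receptor was set against each other receptor by the root mean square (RMS) of the differences between their log2 values. Over the 45 pairs this distance ran from 0.39 to 2.46, with a median of 1.09. Among the genes that fell, PYL4 and PYL5 lay closest (0.50), then PYL4 and PYL8 (0.59) and PYL5 and PYL8 (0.60), across the subfamilies. The pairs with the greatest distance, 2.46, were PYL6 with PYL7 and PYL6 with PYL9. The values share arrays and normalization and are given as a description.

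The same distance over 15 arrays named the 3 loci most like each receptor that changed over the course by at least 1 between its highest and lowest mean. For PYL8 they were SPT (0.16), a bHLH factor that regulates germination, KCS5 (0.17), an enzyme of fatty acid elongation, and AT3G01720 (0.22). SPT differed from 0 h by -1.62, -1.30, -1.27 and -0.74 at 2 h, 12 h, 24 h and 72 h. For PYL4 they were AT3G50350 (0.30), AT5G07580 (0.31) and XTH32 (0.32), a xyloglucan transferase gene that differed from 0 h by -2.46 at 24 h and -0.96 at 72 h. The 24 h mean of XTH32 was dim (3.20). For PYL5 the nearest loci were the peptide gene RALFL33 (0.27), NAC046 (0.27) and EDS16 (0.28), which makes a salicylate precursor.

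For PYL6 the nearest loci were AT2G27420 (0.40), AT5G48430 (0.43) and AT4G30170 (0.57), each lower than at 0 h by more than 4 at 72 h (-5.77, -5.06 and -4.56). Their 72 h means were dim (2.79, 3.14 and 2.82), so the array limits the size of these falls too. For PYL11 the nearest were GPX7 (0.28), a glutathione peroxidase gene, GH3.3 (0.30), which conjugates auxin, and AT5G16170 (0.35). Their 72 h means were also dim (2.41, 3.17 and 3.14). For PYL9 the nearest were AT5G12900 (0.15), AT1G22160 (0.17) and AT3G20898 (0.20). Without 2 h replicate 2, 1 of the 3 remained for PYL4 and 2 of the 3 for each of PYL5, PYL6, PYL8, PYL9 and PYL11.

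Of the 4 dimeric receptor genes, 3 were called lower and none higher at each of 2 h, 12 h, 24 h and 72 h, where 8.89%, 11.7%, 19.1% and 20.2% of all loci were called lower. The exception was PYL3, dim at all 5 times and at 0.04 ± 0.20 at 72 h against 0 h (adjusted p = 0.926). PYL2 differed from 0 h by -1.55 ± 0.45 at 2 h (adjusted p = 0.0297), or -0.78 without 2 h replicate 2, and by -5.09 ± 0.45 at 72 h (adjusted p = 9.14e-07). At 24 h PYL2 was lower than at 12 h as well, by -2.51 ± 0.45 (adjusted p = 0.00513). PYL1 differed by -2.22 ± 0.17 and -1.99 ± 0.17 and PYR1 by -0.78 ± 0.19 and -0.59 ± 0.19 from 0 h at 2 h and 72 h. In all, 8 of the 14 receptors were called lower at 72 h than at 0 h, where 20.2% of all loci were.

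Next in the chain stand the phosphatases that the receptors block. Of the 9 clade A PP2C genes, 8 were called higher and 1 lower at 2 h (median 2.06), 6 and 1 at 12 h, 8 and 1 at 24 h, and 8 and 0 at 72 h (median 1.93). Of all loci 6.95%, 13.3%, 17.4% and 18.4% were called higher at these times, and 8.89%, 11.7%, 19.1% and 20.2% lower. The seed phosphatase gene AHG1 rose by 5.81 ± 0.22 at 2 h (adjusted p = 2.09e-10) and by 5.20 ± 0.22 at 72 h. HAI3 rose by 3.54 ± 0.22 and 4.29 ± 0.22 and HAI2 by 3.48 ± 0.31 and 4.13 ± 0.31 at the same times. The exception was ABI1, at -1.36 ± 0.17 at 2 h (adjusted p = 6.84e-05) and 0.30 ± 0.17 at 72 h (adjusted p = 0.204). Of the 10 SnRK2 kinase genes none was called at 2 h by limma, where 15.8% of all loci were called. At 12 h 4 were called higher and 1 lower, at 24 h 5 and 2, and at 72 h 5 and 0 (median 0.30), where 18.4% of all loci were called higher. The shares of all loci were 13.3% higher and 11.7% lower at 12 h, and 17.4% and 19.1% at 24 h. The 2 SnRK2 genes lower at 24 h are thus near the share of all loci. With all arrays the genes called lower were SNRK2.7, at -1.79 ± 0.37 at 12 h (adjusted p = 0.00249) and -1.74 ± 0.37 at 24 h, and SNRK2.8, at -1.72 ± 0.32 at 24 h (adjusted p = 6.91e-04). At 72 h SNRK2.2 and SNRK2.3, kinases of the ABA response in seeds, rose by 1.05 ± 0.16 (adjusted p = 1.2e-04) and 0.63 ± 0.16 (adjusted p = 0.00695). SNRK2.9 rose by 0.93 ± 0.16 (adjusted p = 4.3e-04) from a dim 0 h level, and SNRK2.6 was at -0.04 ± 0.52 (adjusted p = 0.971). Without 2 h replicate 2, SnRK2 genes called lower numbered 1 at 2 h, 3 at 12 h, 3 at 24 h and 1 at 72 h. In that fit 19.1%, 40.6%, 49.1% and 51.2% of all loci were called in either direction at these times. The share called lower alone is not given here. SNRK2.6 was among the SnRK2 genes called lower at 12 h (-0.45, adjusted p = 0.0372) and 24 h (-0.67, adjusted p = 0.00284), though not called with all arrays.

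At the end of the chain, 4 of 7 transcription factor genes (the group A bZIP factors and ABI3) were called higher at 2 h and 6 of 7 at 72 h, and none lower. The shares of all loci called higher were 6.95% and 18.4%. ABI5 rose by 4.33 ± 0.14 at 2 h and by 4.03 ± 0.14 at 72 h (adjusted p = 1.08e-10). EEL rose by 2.4 ± 0.22 and 4.79 ± 0.22, and ABF3 by 1.60 ± 0.43 and 2.67 ± 0.43. At 2 h the ABF3 arrays overlapped those of 0 h, and without 2 h replicate 2 its rise was 2.29. Against these, the largest rise of a monomeric receptor at 72 h was that of PYL9, 1.26 ± 0.34. Each list is set against 0 h on the same arrays.

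**Figure D4:**
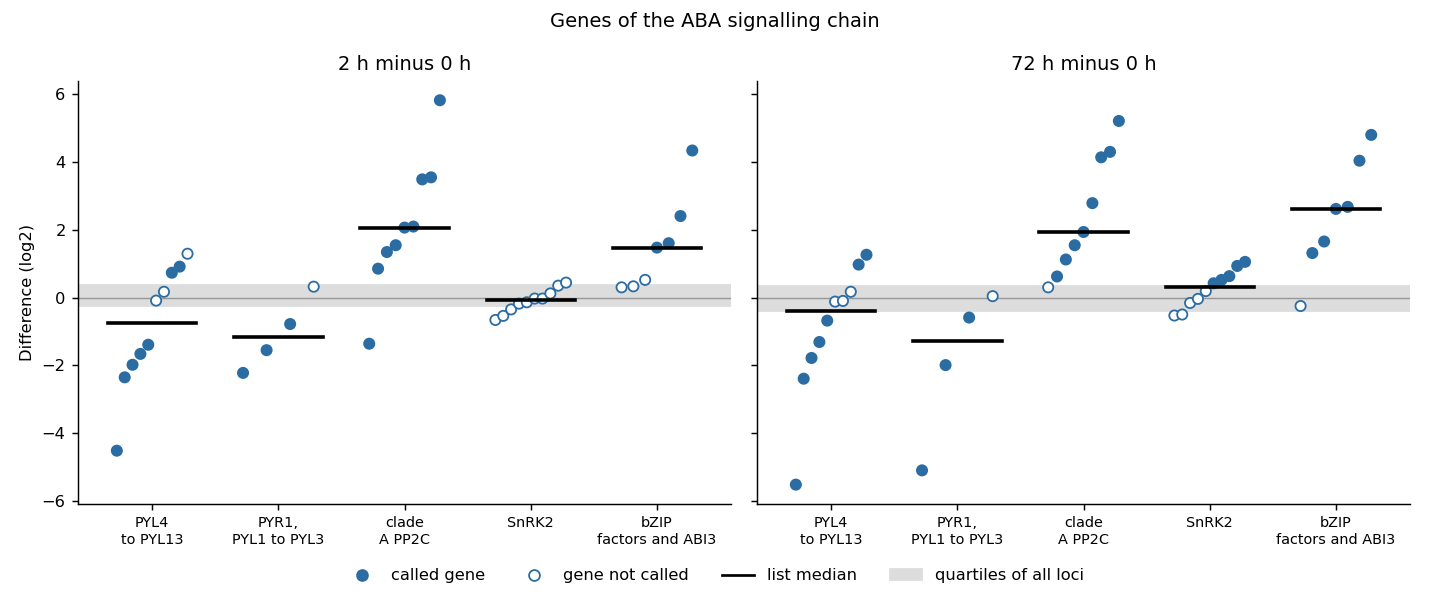
Difference from 0 h (vertical axis, log2) at 2 h and at 72 h for each gene of the ABA signalling chain, by list (horizontal axis); filled points are called, black bars are list medians and the grey band spans the quartiles of all loci. At 72 h the medians are -0.40 for PYL4 to PYL13, -1.29 for the dimeric receptors, 1.93 for clade A PP2C, 0.30 for SnRK2 and 2.61 for the bZIP factors and ABI3.

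Markers of seed tissues were read on the same arrays. Of 6 seed reserve genes, 3 were called higher at 2 h and 3 at 72 h against 0 h, and none lower. At these times 6.95% and 18.4% of all loci were called higher. Without 2 h replicate 2 the reserve genes called numbered 4 higher and 1 lower at 72 h, the lower one being CRB (-0.85, adjusted p = 0.0422). In that fit 51.2% of all loci were called in either direction at 72 h against 0 h. Of 3 endosperm genes, MAN7, for a cell wall mannanase, was called with all arrays, by 3.02 ± 0.18 at 2 h and 2.7 ± 0.18 at 72 h. EPR1, the other strong endosperm marker, had means from 8.75 to 10.40, and without 2 h replicate 2 it was called higher at 12 h (1.09, adjusted p = 0.00221) and 24 h (0.77, adjusted p = 0.0152). Late in the course some of these genes were called lower. At 72 h against 24 h, 1 of the 6 reserve genes was called lower with all arrays and 5 without 2 h replicate 2. Of the 3 endosperm genes, 0 and 2 were. With all arrays 2 endosperm genes were called lower at 72 h than at 12 h. The shares of all loci called lower at 72 h against 24 h and against 12 h are not given here, so these counts have no background. Of the 3 seed coat genes, BAN was dim at all 5 times, TT10 at 4 and TT12 at 1, and none was called. None of the 5 root tip genes was called against 0 h with all arrays in limma, and SCR had means from 7.94 to 8.23. Without 2 h replicate 2, 1 root tip gene was called higher at 24 h, where 49.1% of all loci were called in either direction. The part of the reserve and endosperm genes in the receptor differences was not tested.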

How the data were processed

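RNA of 15 seed pools (3 for each of 5 times) was measured on Affymetrix arrays. Per the labels, 50 ng of total RNA went into each labelled cDNA (Ovation PicoSL, NuGEN). The authors deposited log2 signals from RMA, per the submitters' processing notes, a method that corrects background, normalizes quantiles across arrays and summarizes probe sets. The RMA version, array design, probe set definition and build remain not given in the sources used here. Signals lie between 1.49 and 12.8, and no array was removed.

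The 35986 probe sets name 27981 loci. Where several named a locus, the one with the highest mean over 15 arrays was kept. RefSeq's gene table (TAIR10.1) gave symbols and neighbours only. Of all loci 27241 were in it. No sequence was used here.

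Differences were tested in limma 3.58.1 under R 4.3.3 (lmFit with a mean per time, contrasts.fit, eBayes, two-sided) in 1 fit of all arrays, with p-values adjusted over all loci by the method of Benjamini and Hochberg. All 10 receptors are named. Pathway genes named are up to 3 called genes per list with the largest difference at 2 h or 72 h against 0 h, beside ABI1, PYL3, SNRK2.6, SNRK2.7, SNRK2.8, CRB, EPR1, BAN, TT10, TT12 and SCR, chosen after their values were seen. The members and lists were chosen with earlier results of these data known. Replicate numbers were not treated as pairing the samples. Same-numbered arrays of different times had deviations from their time means that correlated at -0.17 to 0.27, over 0.1 in 11 of 30 pairs. Their median correlation was 0.05, against -0.02 over 60 pairs of different numbers and times. These values cannot show whether same-numbered arrays share a batch. Alternatives were a replicate term, repeated quantile normalization, median centring, a low-signal filter, an intensity trend, array weights, every probe set, the median probe set, adjusted p under 0.01, fits of the 6 arrays compared and each array left out. Results without 2 h replicate 2 for lists and likeness were added after seeing the data. In data simulated for 72 h against 0 h over 27981 loci, 44% of 100 loci changed by 1 and 95% of 100 loci changed by 2 were called, with 7 calls among 27781 unchanged loci. In the data themselves 38.5% of all loci were called in that comparison. The adjustment is stricter where few loci change, so the simulated shares do not measure recovery in the data.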

Additional observations from a re-analysis of the deposited data

How the results depend on the processing

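Of 70 receptor differences (10 genes at 4 times against 0 h and in 3 steps), 27 were called, and 21 of these kept call and direction under every alternative run. The replicate block (a term for the replicate number) changed no call, with 7 receptors called at 2 h, 5 at 12 h, 6 at 24 h and 7 at 72 h against 0 h. Counts that moved by more than 1.5 times were, with only the 6 arrays compared, 4 at 2 h and 8 at 12 h against 0 h, 0 at 12 h against 2 h, 2 at 24 h against 12 h and 4 at 72 h against 24 h. With array quality weights they were 8 at 12 h against 0 h, 3 at 24 h against 12 h and 5 at 72 h against 24 h. At 12 h against 2 h the count was 0 after repeated quantile normalization and at adjusted p under 0.01. With each array left out in turn, the count ran from 5 to 8 at 2 h, 5 to 7 at 12 h, 5 to 7 at 24 h and stayed at 7 at 72 h against 0 h, and it ran from 0 to 2 at 12 h against 2 h, 0 to 2 at 24 h against 12 h, 1 to 4 at 72 h against 24 h and 5 to 8 over the course. The share of all loci called moved as well. Without 2 h replicate 2 it was 40.6% at 12 h against 0 h, with all arrays 25%. For 24 h against 12 h these shares were 21.3% and 6.56%. For the other alternatives the share of all loci is not given here, so their counts have no background.

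Signs turned only for differences that were not called with all arrays. PYL9 at 2 h against 0 h was 0.03 with arrays centred, 0.43 with array weights and 0.50 without 2 h replicate 2. PYL10 at 2 h was -0.10 after repeated quantile normalization. PYL5 at 12 h against 2 h was -0.01 with arrays centred, PYL9 -0.12 with array weights and PYL13 0.12 after quantile normalization. PYL6 at 24 h against 12 h was 0.06 with arrays centred, and at 72 h against 24 h 0 after quantile normalization. With arrays left out, differences that changed sign spanned -0.40 to 0.50 for PYL9 and -0.10 to 2.08 for PYL12 at 2 h, and for PYL12 also -0.17 to 0.21 at 24 h and -0.30 to 0.07 at 72 h against 0 h. At 12 h against 2 h they spanned -0.20 to 0.40 for PYL5, -0.11 to 0.80 for PYL9 and -0.33 to 0 for PYL13. At 24 h against 12 h they spanned -0.23 to 0.20 for PYL6, -0.08 to 0.36 for PYL7 and -0.04 to 0.13 for PYL9, and at 72 h against 24 h -0.07 to 0.02 for PYL6, -0.26 to 0.01 for PYL12 and -0.34 to 0.16 for PYL13. The cause was not tested. The low-signal filter left out PYL10, and signal over background was not available for dim genes.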

Other observations

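Proteins that bind or handle the receptors, and factors tied to them, were read from further lists. Of 5 genes for receptor-associated proteins, 2 were called higher and none lower at each of 2 h, 12 h, 24 h and 72 h against 0 h, where 6.95%, 13.3%, 17.4% and 18.4% of all loci were called higher. CAR9, of a family of C2-domain proteins that bring receptors to membranes, rose by 0.92 ± 0.21 at 2 h (adjusted p = 0.00847) and by 1.86 ± 0.21 at 72 h (adjusted p = 1.07e-05). DDA1, which takes part in the breakdown of PYL8 protein, rose by 0.86 ± 0.21 at 2 h and 0.83 ± 0.21 at 72 h (adjusted p = 0.00631). Without 2 h replicate 2 its 2 h difference was 0.56 (adjusted p = 0.0117) and that of CAR9 0.63 (adjusted p = 0.00585).

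Of 5 transcription factor genes tied to receptors, 2 were called higher and 2 lower at 72 h against 0 h, where 18.4% and 20.2% of all loci were. HB7 and HB12, homeodomain factors known to hold down receptor genes and raise phosphatase genes, rose by 1.93 ± 0.36 (adjusted p = 6.16e-04) and 2.03 ± 0.41 (adjusted p = 0.00115) at 72 h. At 2 h HB7 was higher by 2.89 ± 0.36 (adjusted p = 6.44e-05). MYB77, which binds PYL8 in lateral roots, fell by 1.64 on the log2 scale at 72 h (adjusted p = 0.00127).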
